A study of Mus musculus with 8 samples.

Results

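Old and young Asxl2 knockout (KO) mice were compared through the RNA of their LSK cells. These are the lineage-negative, Sca1-positive and Kit-positive bone marrow cells that hold the blood stem cells and the multipotent progenitors closest to them. The comparison used 4 of the 8 libraries of the study, those labelled Asxl2 KO. Old KO mice were over 1 year of age and young KO mice were 8 to 12 weeks of age, with 2 mice in each group. Each group had 1 mouse from the batch labelled 1 and 1 from the batch labelled 2, which carry different years, so old and young could be compared within each batch. The 4 WT libraries had the same layout of ages and batches, and each KO mouse had a WT littermate of its own age and batch. They entered the fit to estimate the spread and gave the age difference in WT mice. All 4 mice compared were labelled Asxl2 KO, so the comparison shows age within the KO genotype. The labels do not say how the knockout was made, and the sources used here do not give the strain. The 2 mice of a group also differ in litter. The main fit had no litter term and treated littermates as independent. Its p-values thus rest on the spread between single mice that group and batch leave over all 8 libraries.

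Asxl2 encodes a chromatin adaptor of the Bap1 deubiquitinase, which removes ubiquitin from histone H2A, and mutations of its paralog Asxl1 are common in blood cancers. With age, blood stem cells of mice become more numerous in the marrow, contribute less to lymphoid cells and more to myeloid cells and platelets, and raise a known group of genes that includes Selp, Vwf, Clu, Nupr1 and Aldh1a1. Those genes encode, in order, a platelet and endothelial adhesion receptor, a clotting protein, a secreted chaperone, a stress-induced nuclear protein and an enzyme that makes retinoic acid. LSK is a mixture of stem cells and progenitors, and in such bulk RNA fewer cells of a type and less RNA per cell cannot be told apart.

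The KO libraries held 45737972 to 78178864 estimated counts. Asxl2 was at 5.63 TPM (a transcript level scaled for transcript length and library depth) in the young KO mouse of batch 1 and 4.63 TPM in that of batch 2. It was at 5.34 and 4.99 TPM in the old KO mice of batches 1 and 2, against 23 to 30.8 TPM in the 4 WT libraries. The Asxl2 level was thus low at both ages (log2 old over young 0.15, adjusted p = 0.695). The sort markers were present in all 4 KO libraries, but Kit was lower in both old mice (63.4 and 87.4 TPM) than in the young mice (144 and 161 TPM, batches 1 and 2), with an adjusted p = 0.133. Ly6a, which encodes Sca1, was at 661 and 355 TPM in the old mice of batches 1 and 2 against 304 and 266 TPM in the young mice (adjusted p = 0.142). More genes had at least 5 counts in the old KO libraries (28791 and 27824) than in the young ones (22085 and 25050, batches 1 and 2), and pseudogenes took 2.2% and 2.0% of the counts against 1.36% and 1.51%. The old KO mouse of batch 1 had Xist at 3.33 TPM, against 0.022 to 0.0612 TPM in the other 3, and the Y-linked gene Ddx3y at 0.0229 TPM against 25.7 to 35.4 TPM. The Y-linked genes Eif2s3y, Kdm5d and Uty were also lower there but not absent, at 1.63, 1.88 and 2.06 TPM. In the other 3 libraries they were at 51.3 to 98.4, 7.81 to 8.61 and 12.4 to 14.8 TPM, in that order. Sex therefore cannot be told apart from age within batch 1. The mature neutrophil list summed to 2463 TPM in the young KO mouse of batch 2 and to 526.7 to 776.4 TPM in the other 3, with all 20 list genes measured. The part of these differences in the results was not tested.

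Old against young KO mice gave 22 genes at an adjusted p under 0.05 of 25543 tested, which is 0.0861% (edgeR quasi-likelihood test with Benjamini-Hochberg adjustment over all genes). Of these, 16 were higher and 6 lower in old mice, or 0.0626% and 0.0235% of the genes tested. Of the 22 genes, 20 also differed by at least 2-fold in the same direction within both batches, 15 higher and 5 lower. The exceptions were Gvin1 and the antibody segment Ighv7-1, which had no counts in either KO library of batch 2. The 22 comprised 18 protein-coding genes, 3 antibody gene segments and the pseudogene Gm38356. The calls sat close to the threshold, as 42 more genes had adjusted p between 0.05 and 0.06, starting at 0.0509, and 6224 genes had an unadjusted p under 0.05.

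The number of calls depended on single libraries. Without the young KO mouse of batch 1 it was 0, with 1124 genes at an unadjusted p under 0.05 by the same edgeR test, and no other tool was run without that library. It was 1006 without the young KO mouse of batch 2, 126 without the old KO mouse of batch 2 and 53 without the old KO mouse of batch 1. Leaving out a WT library gave 2772 for the young mouse of batch 2, 1486 for the young mouse of batch 1, 13 for the old mouse of batch 2 and 17 for the old mouse of batch 1. Of the 22 genes, 20 kept their direction under every alternative that tested them. Under the 18 alternatives, Plscr2 passed in 16, Phf11d and Mt1 in 15, and Clu, Hnf4a and Clca3a1 in 14, the 6 highest counts.

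**Figure D1:**
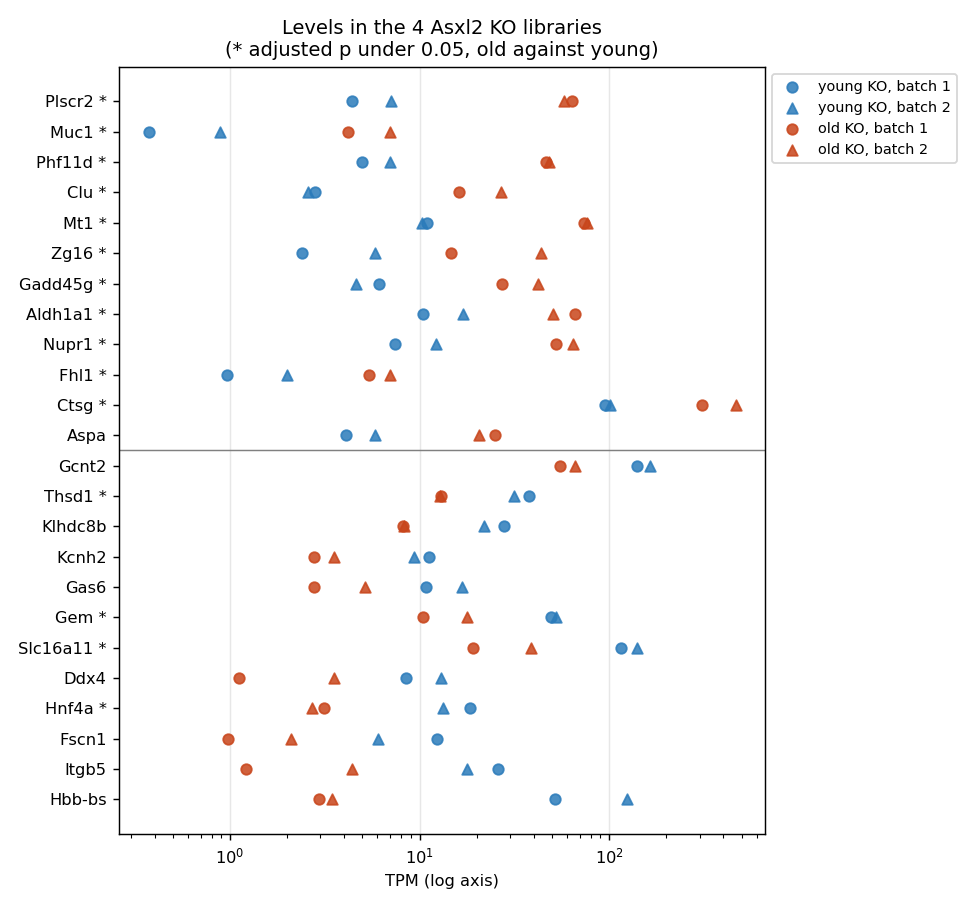
Level of the 24 protein-coding genes named by rule in the 4 KO libraries, as TPM on a log axis, with 1 point for each mouse, colour for age, shape for batch, and a star for an adjusted p under 0.05. Genes above the line are higher in old mice and genes under it lower, and for each of the 24 the 2 old values lie on 1 side of the 2 young values. The 24 were chosen for the same sign in both batches and a small p, so this separation was largely set by the choice. The share of all genes separated in this way was not computed.

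The gene with the smallest adjusted p was Plscr2, which encodes a member of the phospholipid scramblase family (ENSMUSG00000032372, mm10 chromosome 9, 92275602 to 92297752). It measured 4.38 and 7.10 TPM in the young KO mice of batches 1 and 2 and 63.7 and 58.0 TPM in the old ones. The old mice were far above the young in both batches, with no overlap. The log2 change was 3.60 (SE 0.30, edgeR adjusted p = 0.00154), at 3.96 within batch 1 and 3.17 within batch 2. Plscr2 lost its call without the young KO mouse of batch 1 (adjusted p = 0.0604) and without litter 1, the old KO and WT mice of batch 1 (adjusted p = 0.165).

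Clu, the secreted chaperone clusterin (chromosome 14, 65968483 to 65981547), measured 2.82 and 2.59 TPM in young and 16.1 and 27.0 TPM in old KO mice, batch 1 first. The old KO mouse of batch 2 was the highest and the groups did not overlap. Clu rose by 2.94 on the log2 scale (SE 0.33, edgeR adjusted p = 0.00504). Phf11d, which encodes a PHD finger protein (chromosome 14, 59347407 to 59365470), measured 4.99 and 6.97 TPM in young and 46.7 and 48.4 TPM in old KO mice. It rose by 3.0 (SE 0.32, edgeR adjusted p = 0.00345), and it belongs to a cluster of similar genes among which reads may be divided with error.

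Mt1 and Gadd45g belong to the list of immediate early and stress genes. Mt1 encodes a metallothionein, a small protein that binds zinc and other metals, and Gadd45g a growth arrest and DNA damage protein. Mt1 (chromosome 8, 94179082 to 94180327) measured 11 and 10.3 TPM in young and 73.3 and 76.6 TPM in old KO mice, so that the mice of 1 age lay close together. It rose by 2.85 (SE 0.36, edgeR adjusted p = 0.0113), at 2.83 and 2.85 within batches 1 and 2. Gadd45g (chromosome 13, 51846678 to 51848468) measured 6.12 and 4.62 TPM in young and 27.3 and 42.4 TPM in old KO mice, and rose by 2.71 (SE 0.34, edgeR adjusted p = 0.0113). Both genes were higher in both batches. Mt2, the neighbouring metallothionein gene, measured 0.737 and 0.241 TPM in young and 7.01 and 11.8 TPM in old KO mice and did not pass (log2 4.11, adjusted p = 0.086). Metallothionein genes are short and alike, so reads may be divided between them with error.

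Nupr1, the stress-induced nuclear protein (chromosome 7, 126623249 to 126630861), measured 7.42 and 12.2 TPM in young and 52.3 and 64.6 TPM in old KO mice, a log2 change of 2.20 (SE 0.31, edgeR adjusted p = 0.0287). Aldh1a1, the retinaldehyde dehydrogenase (chromosome 19, 20492715 to 20643465), went from 10.4 and 16.9 TPM to 66.2 and 50.5 TPM, a log2 change of 2.22 (SE 0.32, edgeR adjusted p = 0.0287). Fhl1, a LIM-domain gene on the X chromosome, went from 0.962 and 2.01 TPM to 5.39 and 7.02 TPM (log2 2.07, SE 0.29, edgeR adjusted p = 0.0283). In all 3 genes both old mice stood above both young mice. Without the old KO mouse of batch 1, adjusted p was 0.0777 for Nupr1, 0.0768 for Aldh1a1 and 0.0737 for Fhl1.

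Ctsg, the protease cathepsin G of the primary granules of neutrophils and their progenitors (chromosome 14, 56099881 to 56102574), was the most abundant gene that rose. It measured 95.3 and 101 TPM in young and 308 and 465 TPM in old KO mice (log2 1.98, SE 0.30, edgeR adjusted p = 0.0398). The 2 young mice were nearly level and both old mice were above them. The remaining protein-coding genes that rose were at low levels in young mice. Muc1, a membrane mucin, went from 0.372 and 0.889 TPM to 4.18 and 7.02 TPM (adjusted p = 0.0287). Zg16, a secreted lectin-like protein, went from 2.41 and 5.81 TPM to 14.6 and 43.5 TPM (adjusted p = 0.0362). Clca3a1, a gene of the calcium-activated chloride channel regulator family, went from 0.207 and 0.299 TPM to 2.54 and 4.91 TPM (adjusted p = 0.00345). Clca3a1 stayed under 5 TPM and so falls outside the rule for named genes. It was named after its values were seen.

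Hnf4a, a nuclear receptor best known from liver and gut (chromosome 2, 163506808 to 163572910), measured 18.5 and 13.3 TPM in young and 3.15 and 2.71 TPM in old KO mice. The old mice were low in both batches, and Hnf4a fell by 2.52 on the log2 scale (SE 0.26, edgeR adjusted p = 0.00345). Slc16a11, of the monocarboxylate transporter family (chromosome 11, 70212752 to 70216417), measured 116 and 141 TPM in young and 19.2 and 38.7 TPM in old KO mice. It fell by 2.16 (SE 0.24, edgeR adjusted p = 0.00504), at -2.48 and -1.86 within the batches. Among the 6 genes that fell, Slc16a11 had the highest level in young mice.

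Gem, a small GTP-binding protein that inhibits calcium channels (chromosome 4, 11704457 to 11714752), measured 49.5 and 52.2 TPM in young and 10.4 and 17.8 TPM in old KO mice. It fell by 1.88 (SE 0.25, edgeR adjusted p = 0.0217). Thsd1, a membrane protein with a thrombospondin domain (chromosome 8, 22227313 to 22261334), measured 38.0 and 31.4 TPM in young and 12.9 and 12.8 TPM in old KO mice and fell by 1.38 (SE 0.20, edgeR adjusted p = 0.0287). In both genes the 2 groups were separate. Pi4ka, a lipid kinase, measured 2.80 and 2.75 TPM in young and 0.378 and 0.907 TPM in old KO mice (adjusted p = 0.0431). Its young level was under 5 TPM, and it was named after its values were seen.

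Gvin1, a very large interferon-inducible GTPase gene with close copies, passed (edgeR adjusted p = 0.00345) on 1 library, the young KO mouse of batch 1 with 1503 counts and 3.32 TPM. It is listed at 0 in the other 3 KO libraries. In WT mice it was likewise present in the young mouse of batch 1 (1822 counts) and listed at 0 in the other 3. Gvin1 thus followed a pair of littermates at both genotypes. It had adjusted p = 1.0 without the young KO mouse of batch 1, without the old KO mouse of batch 1 or without litter 1.

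The 3 antibody segments were also carried by few libraries. Ighv9-3 had 940 and 17 counts in the old KO mice of batches 1 and 2 and 0 in both young mice. Igkv13-84 had 409 and 115 counts in the old mice against 3 and 0 in the young mice. Ighv7-1 had 185 counts in the old KO mouse of batch 1 and 0 in the other 3. The 3 segments passed (edgeR adjusted p = 0.00345, 0.0113 and 0.0287 in that order). Their effective lengths were 89, 86 and 99 bases, so small counts gave high TPM values, and segments resemble each other closely. Jchain, which joins secreted antibody molecules and marks plasma cells, measured 0.555 and 0.984 TPM in young and 58.9 and 17.5 TPM in old KO mice but did not pass (log2 5.17, adjusted p = 0.102). Of 20 B and plasma cell genes, 1 was at least 2-fold higher in both batches and 2 lower, beside 18.8% and 0.963% of all genes. Their median was 0.15, at 0.64 and -0.08 within batches 1 and 2. Sdc1, of that list, went from 36.1 and 29.3 TPM to 15.6 and 14.1 TPM (log2 -1.2, edgeR adjusted p = 0.111). The pseudogene Gm38356 had 596 and 138 counts in the old KO mice and 0 in the young ones (edgeR adjusted p = 0.0274). The 3 segments, the pseudogene and Gvin1 lie outside the rule for named genes and were named after their values were seen.

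Genes were then compared within each batch, without a test, since each batch holds 1 old and 1 young KO mouse. At least 2-fold higher in old mice in both batches were 4793 of 25543 genes, or 18.8%, and at least 2-fold lower 246, or 0.963%. Most of the higher genes were at low levels. Of the 10828 genes with a mean of at least 5 TPM over the 4 KO libraries, 390 (3.6%) were at least 2-fold higher in both batches and 93 (0.859%) lower. Of the 9552 protein-coding genes at that level the counts were 89 (0.932%) and 79 (0.827%), so the excess of higher genes lay among other gene types and low levels. The larger number of genes detected in the old libraries, given above, moved with this excess, and its part was not tested. After removal of the trend with transcript length the split over all genes was 2954 higher and 701 lower, against 4793 and 246. Across all 25543 genes the differences in the 2 batches had a Pearson correlation of 0.62, and 82.5% had the same sign. With a mean of at least 5 TPM these were 0.66 and 85.4%. The genes of a batch share its libraries, and genes are not independent replicates. Of the genes at least 2-fold higher in batch 1, 54.9% were so in batch 2, and of those in batch 2, 81.0% were so in batch 1. For genes lower in old mice the shares were 17.6% and 32.5%. In opposite directions by at least 2-fold were 102 genes higher in batch 1 and lower in batch 2, and 140 the other way.

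**Figure D2:**
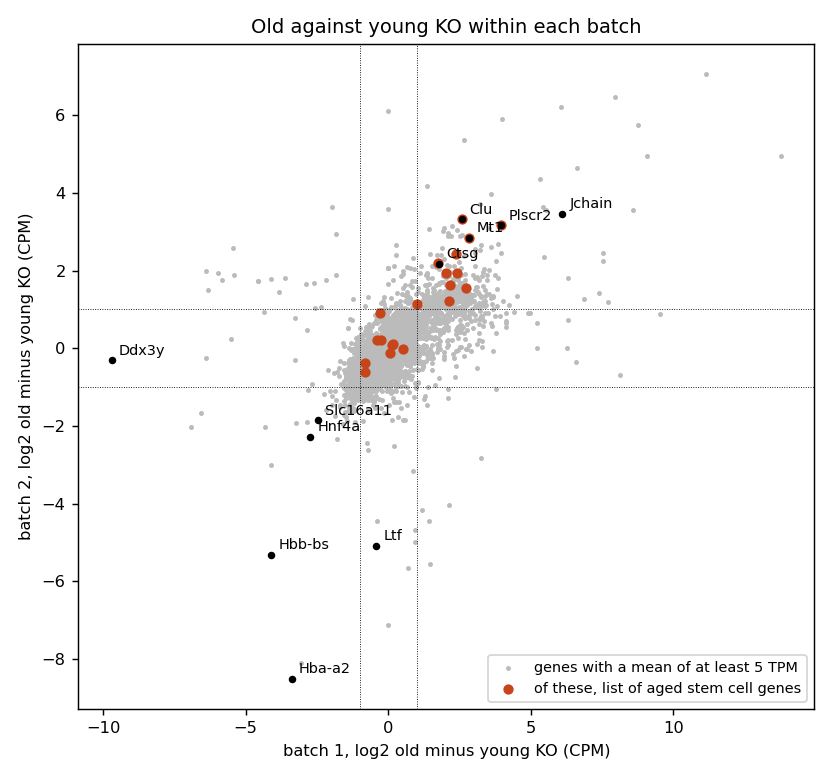
Log2 difference of old minus young KO in batch 1 (x axis) and batch 2 (y axis) on the CPM scale (counts scaled to the library size), for the 10828 genes with a mean of at least 5 TPM in KO libraries, with dotted lines at 2-fold and the list of aged stem cell genes in red. Plscr2, Clu, Mt1 and Ctsg lie beyond 2-fold in the upper right, Hnf4a, Slc16a11 and the globins Hbb-bs and Hba-a2 in the lower left, while Ddx3y is low in batch 1 only and Ltf in batch 2 only.

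In addition to the 22 genes, some genes were separated in both batches but missed the threshold. Aspa, which breaks down N-acetylaspartate, measured 4.09 and 5.79 TPM in young and 25.0 and 20.5 TPM in old KO mice (log2 1.95, adjusted p = 0.0509). The adult beta-globin gene Hbb-bs measured 51.8 and 124 TPM in young and 2.94 and 3.44 TPM in old KO mice (log2 -4.64, adjusted p = 0.056). The integrin subunit Itgb5 measured 25.8 and 17.8 TPM in young and 1.21 and 4.42 TPM in old KO mice (log2 -3.30, adjusted p = 0.056). Each was separated by age in both batches, as were Ddx4, a germline RNA helicase, Fscn1, an actin-bundling protein, and Kcnh2, a potassium channel, all at lower levels in old mice. Gas6, the ligand of the receptor kinase Axl, measured 10.8 and 16.8 TPM in young and 2.78 and 5.14 TPM in old KO mice (log2 -1.82, adjusted p = 0.0532). Axl itself measured 13.8 and 15 TPM in young and 3.73 and 5.71 TPM in old KO mice (log2 -1.50, adjusted p = 0.0899). The ligand and its receptor were thus both lower in old mice in each batch without passing. The other genes of this kind were Gcnt2, a glycan-branching enzyme (log2 -1.30, adjusted p = 0.0525), and Klhdc8b (log2 -1.49, adjusted p = 0.056).

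Gene lists were read against the 9552 protein-coding genes with a mean of at least 5 TPM, called expressed protein-coding genes. Of these, 71.5% were lower and 15.2% higher in old mice in both batches. At an unadjusted p under 0.05, 31.3% of them were lower and 3.47% higher, and DESeq2 called 20.9% lower and 2.17% higher.

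The known genes of aged stem cells stood higher in old KO mice. Of 39 tested, 6 rose and 0 fell, namely Plscr2, Clu, Mt1, Nupr1, Aldh1a1 and Fhl1, against 0.0626% higher over all genes. At least 2-fold higher in both batches were 23 of 39, and 0 were lower. The median log2 difference was 1.43, at 1.57 within batch 1 and 1.14 within batch 2, beside 0.18 over all genes and -0.34 over protein-coding genes with a mean of at least 5 TPM. Of the 20 members at that level, 11 were at least 2-fold higher in both batches, beside 0.932% of such protein-coding genes. The list was compiled with earlier results of these libraries known, so its direction is not independent evidence. The count of members that rose was 14 without the old KO mouse of batch 2 or without the young KO mouse of batch 2, and 0 without the young KO mouse of batch 1 or without litter 1. It was 3 without either old WT mouse and 19 without either young WT mouse, while the median stayed between 1.21 and 1.64 in these fits.

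Among its members that did not pass, Selp, the adhesion receptor P-selectin, measured 4.90 and 5.29 TPM in young and 19.5 and 23.1 TPM in old KO mice (log2 2.0, adjusted p = 0.0563). Vwf, the clotting protein von Willebrand factor, measured 4.16 and 7.88 TPM in young and 14.2 and 17.1 TPM in old KO mice (log2 1.07, adjusted p = 0.153). Both were separated by age in each batch. Cavin2, a protein of caveolae, went from 3.86 and 4.91 TPM to 12.2 and 22.9 TPM (adjusted p = 0.0509), and Gstm2, a glutathione transferase with close paralogs, from 7.44 and 10.5 TPM to 37.3 and 58.2 TPM (adjusted p = 0.0558). Slamf1, which encodes the stem cell surface marker CD150, was at 10.9 and 14.5 TPM in young and 11 and 15.7 TPM in old KO mice and showed no age difference beyond the spread (log2 0.10, adjusted p = 0.807). Its sign turned without the old KO mouse of batch 1 (-0.07).

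Of the 24 members of the megakaryocyte and platelet list, 0 passed by edgeR. At an unadjusted p under 0.05 it had 5 higher and 3 lower, and DESeq2 called 4 and 1. Expressed protein-coding genes had 3.47% higher and 31.3% lower at that p, and 2.17% and 20.9% called by DESeq2. At least 2-fold higher in both batches were 5 (Gp1bb, Vwf, Selp, Itgb3 and Clec1b), beside 18.8% of all genes, and 0 were lower. Of the 16 members with a mean of at least 5 TPM, 3 were, beside 0.932% of expressed protein-coding genes. Gp1bb, a subunit of the platelet receptor for Vwf, measured 6.94 and 4.79 TPM in young and 30.9 and 19.1 TPM in old KO mice (log2 2.11, adjusted p = 0.0509). The list median was 0.32, at 0.52 and 0.07 within batches 1 and 2.

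Of 30 stem cell identity genes, 0 passed by edgeR, with 3 higher and 13 lower at an unadjusted p under 0.05 and 1 and 9 called by DESeq2. Expressed protein-coding genes had 3.47% higher and 31.3% lower at that p, and 2.17% and 20.9% called by DESeq2. In sign, 22 of the 30 were lower in both batches, a share near the 71.5% of expressed protein-coding genes, and 7 higher, with a median of -0.49 (-0.47 and -0.49 within the batches) beside -0.34 for protein-coding genes with a mean of at least 5 TPM. Hlf, a transcription factor of stem cells, measured 119 and 168 TPM in young and 66.8 and 69.2 TPM in old KO mice (log2 -0.98, adjusted p = 0.111). Mecom, a zinc finger factor that stem cells need, measured 31.5 and 36.2 TPM in young and 14 and 20.8 TPM in old KO mice (log2 -0.94, adjusted p = 0.123). Both were lower in each batch. Robo4, an endothelial and stem cell receptor, and Egr1, an immediate early transcription factor, were more than 2-fold lower in both batches (adjusted p = 0.116 and 0.0778).

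Lymphoid-primed genes also gave 0 of 23 past the threshold by edgeR, with 3 higher and 7 lower at an unadjusted p under 0.05 and 2 and 3 called by DESeq2. Expressed protein-coding genes had 3.47% higher and 31.3% lower at that p, and 2.17% and 20.9% called by DESeq2. Flt3, the cytokine receptor that marks these progenitors, measured 265 and 239 TPM in young and 95.2 and 142 TPM in old KO mice (log2 -1.11, adjusted p = 0.078). Dntt, the enzyme that adds bases at antigen receptor joins, measured 354 and 277 TPM in young and 252 and 438 TPM in old KO mice. Dntt was thus lower with age in batch 1 and higher in batch 2 (log2 0.18, adjusted p = 0.689). The list median was -0.24, near that of expressed protein-coding genes.

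Of 22 granule and receptor genes of myeloid progenitors, Ctsg rose and 0 fell, beside 0.0626% of all genes higher. Prtn3, proteinase 3 of the same granules, measured 377 and 328 TPM in young and 810 and 848 TPM in old KO mice (log2 1.29, adjusted p = 0.056). Prtn3 and Ctsg were the only members at least 2-fold higher in both batches, 2 of 22 beside 18.8% of all genes. Both were among the 21 members with a mean of at least 5 TPM, beside 0.932% of expressed protein-coding genes. Ms4a3, a membrane protein of granulocyte and monocyte progenitors, measured 24.2 and 39.5 TPM in young and 38.8 and 123 TPM in old KO mice (adjusted p = 0.179), and Gfi1, a repressor in the same lineage, 43.4 and 33 TPM in young and 15.6 and 20.7 TPM in old (adjusted p = 0.109). The list median was 0.24, and -0.24 after removal of the trend with transcript length, beside -0.34 and -0.55 over expressed protein-coding genes. The neutrophil list did not move with Ctsg in both batches, as its median was 0.46 in batch 1 and -2.93 in batch 2. There the young KO mouse had 154 TPM of Ltf, the secondary granule protein lactoferrin, against 5.88 to 13.6 TPM in the other 3 KO libraries.

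Erythroid genes differed between batches as a list (median 0.20 in batch 1 and -0.94 in batch 2). At least 2-fold lower in both were 5 of 26, beside 0.963% of all genes, and 1 was at least 2-fold higher in both. Of the 15 members with a mean of at least 5 TPM, 3 were lower and 0 higher. Of expressed protein-coding genes, 0.827% were lower. Beside Hbb-bs the 5 lower members were Hba-a1, Hba-a2, Slc4a1 and Alas2. These encode alpha-globin from 2 near-identical copies, the red cell anion exchanger and the heme synthesis enzyme of red cells. Hba-a2 measured 49.1 and 122 TPM in young and 4.24 and 0.229 TPM in old KO mice (log2 -4.51, adjusted p = 0.111). Of the 26, 0 passed by edgeR, 2 were higher and 8 lower at an unadjusted p under 0.05, and DESeq2 called 1 and 6. Of expressed protein-coding genes, 31.3% were lower at an unadjusted p under 0.05 and DESeq2 called 20.9% lower. T and NK cell genes gave 5 of 22 members at least 2-fold higher in both batches, beside 18.8% of all genes. By edgeR 0 passed, with 3 higher and 2 lower at an unadjusted p under 0.05 and 1 and 2 called by DESeq2. Of the 5 members with a mean of at least 5 TPM, 0 were at least 2-fold higher in both batches. Trac, the T cell receptor alpha constant gene, measured 0.201 and 1.27 TPM in young and 3.10 and 9.27 TPM in old KO mice (log2 3.62, adjusted p = 0.056). Lck, a more abundant member, was lower in both batches. It went from 125 and 128 TPM to 61.7 and 92.3 TPM (log2 -0.83, edgeR adjusted p = 0.116). Fcer1a, an IgE receptor subunit of mast cells and basophils, measured 1.41 and 3.18 TPM in young and 7.38 and 24.9 TPM in old KO mice (adjusted p = 0.0981). Its list of 21 mast cell, basophil and eosinophil genes did not move with it, as the median was -0.31. In sign, 5 of the 21 were higher and 7 lower in both batches, beside 15.2% and 71.5% of expressed protein-coding genes.

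**Figure D3:**
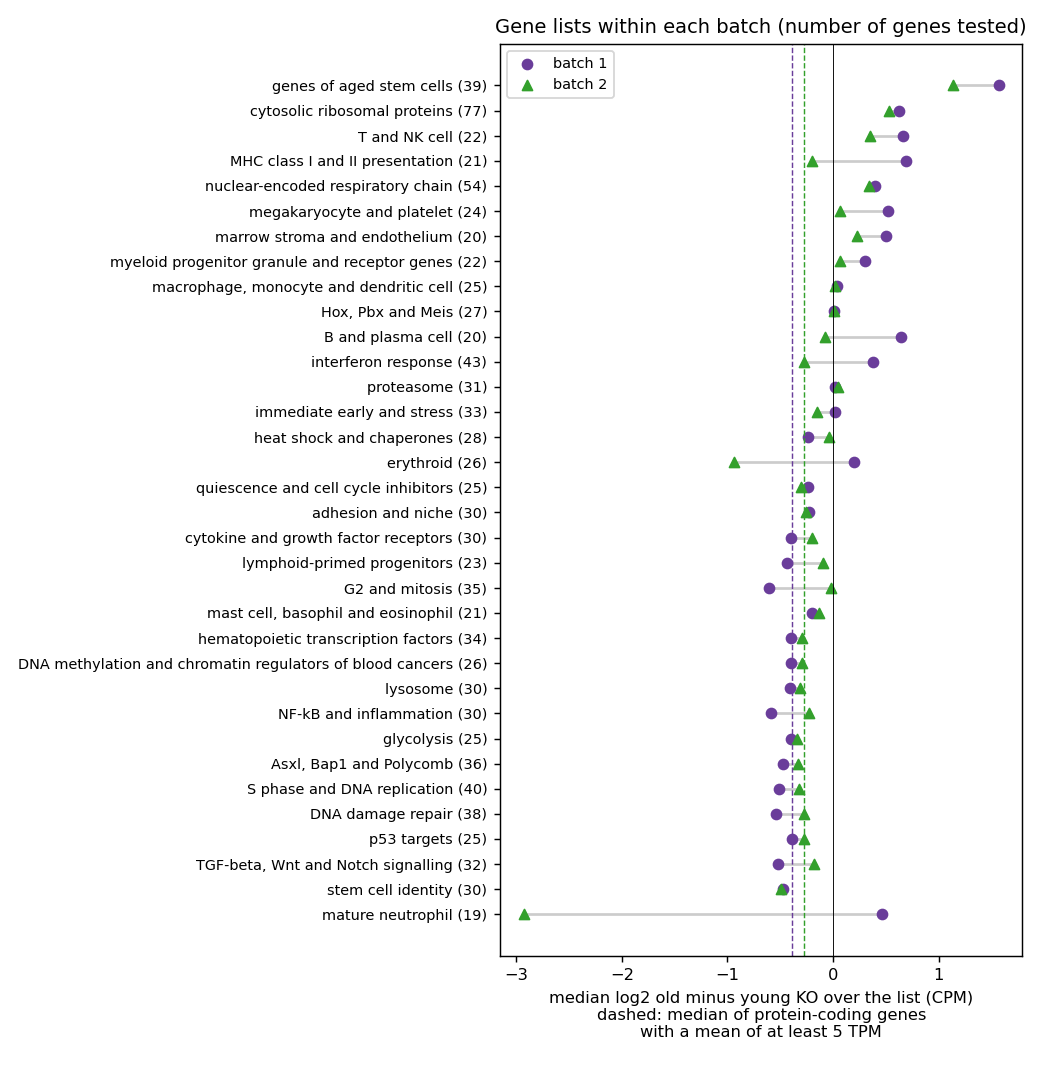
Median log2 difference of old minus young KO over each of 34 gene lists, within batch 1 (circles) and batch 2 (triangles), with the number of genes tested in parentheses and dashed lines at the medians of protein-coding genes with a mean of at least 5 TPM (-0.39 and -0.27). The list of aged stem cell genes is the highest in both batches (1.57 and 1.14), and the mature neutrophil and erythroid lists differ most between batches.

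Of 40 S phase genes, 0 passed by edgeR, with 17 lower at an unadjusted p under 0.05 and 13 called lower by DESeq2, beside 31.3% and 20.9% of expressed protein-coding genes. In sign, 36 of the 40 were lower in both batches, beside 71.5%, and the median was -0.40, beside -0.34. The 35 genes of G2 and mitosis had a median of -0.61 in batch 1 and -0.02 in batch 2, beside -0.39 and -0.27 over expressed protein-coding genes, and 20 of them were lower in both batches, beside 71.5%. Cdkn1a, which encodes the cyclin-dependent kinase inhibitor p21 and is a p53 target, measured 21.6 and 15.3 TPM in young and 54.9 and 68.7 TPM in old KO mice (log2 1.66, adjusted p = 0.0647). Cdk6, a kinase that drives exit from quiescence, measured 114 and 67.1 TPM in young and 253 and 158 TPM in old KO mice (log2 0.88, adjusted p = 0.102). An inhibitor and a kinase were thus both at higher levels in the old mouse of each batch. Of 25 p53 targets, 0 passed by edgeR and 15 were lower in both batches, beside 71.5% of expressed protein-coding genes, with 3 higher and 9 lower at an unadjusted p under 0.05 and 2 and 8 called by DESeq2. Among them Sesn1, a stress protein that restrains the growth kinase mTOR, measured 155 and 154 TPM in young and 66.9 and 81.8 TPM in old KO mice (log2 -1.05, adjusted p = 0.0563).

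Of 36 Asxl, Bap1 and Polycomb genes, 0 passed by edgeR and the median was -0.38, with 12 lower at an unadjusted p under 0.05 and 11 called lower by DESeq2, beside 31.3% and 20.9% of expressed protein-coding genes and a median of -0.34. Of 26 regulators of DNA methylation and chromatin, 0 passed by edgeR with a median of -0.35, 5 were lower at an unadjusted p under 0.05 and DESeq2 called 4 lower. Asxl1 was at 14.4 and 12.0 TPM in young and 10.9 and 12.1 TPM in old KO mice (adjusted p = 0.35). Hoxa9, a homeobox gene of stem and progenitor cells, measured 143 and 127 TPM in young and 58.4 and 78.8 TPM in old KO mice (log2 -0.94, adjusted p = 0.102). The 43 interferon response genes had a median of 0.38 in batch 1 and -0.27 in batch 2, and the 21 genes of MHC presentation 0.69 and -0.20. By edgeR 0 passed in either list, with 2 higher and 2 lower interferon genes and 5 higher and 1 lower presentation genes at an unadjusted p under 0.05. DESeq2 called 2 higher interferon genes and 0 presentation genes. The beta-2 microglobulin gene B2m measured 4250 and 4680 TPM in young and 8220 and 5900 TPM in old KO mice (log2 0.72, adjusted p = 0.166). The old mouse of batch 1 had the highest level of B2m, and the age difference in these lists was not shared by both batches.

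Of 77 ribosomal protein genes, 72 were higher in old KO mice in both batches, beside 15.2% of expressed protein-coding genes, and 0 lower, with a median of 0.58 (0.63 and 0.53 within the batches). By edgeR 0 passed, with 54 higher at an unadjusted p under 0.05 and 31 called higher by DESeq2. Of expressed protein-coding genes, 3.47% were higher at that p and DESeq2 called 2.17% higher. Rps29, for example, measured 322 and 211 TPM in young and 544 and 466 TPM in old KO mice (log2 0.98, adjusted p = 0.128). Of 54 nuclear-encoded respiratory chain genes, 40 were higher in both batches, beside 15.2% of expressed protein-coding genes, with a median of 0.38. By edgeR 0 passed, with 15 higher and 2 lower at an unadjusted p under 0.05 and 9 and 1 called by DESeq2. Beside these stand 3.47% higher and 31.3% lower, and 2.17% and 20.9% by DESeq2, of expressed protein-coding genes. Both lists hold short transcripts, and across 9552 expressed protein-coding genes the age difference fell with effective length. The Spearman correlation was -0.64 in batch 1 and -0.44 in batch 2 of KO mice, against 0.02 and -0.73 in WT mice, across genes that share their libraries. Of 10 equal groups by length, the shortest genes (median 475 bases) had medians of 0.38 and 0.27 in KO mice and the longest (median 4524 bases) -0.67 and -0.37. With the length trend of each library removed, the ribosomal median was -0.23 and the respiratory median -0.39, against -0.21 over all genes and -0.55 over expressed protein-coding genes. The part of transcript length in these lists was not tested beyond this correction. The aged stem cell list had 1.34 with the same correction, and all 22 genes that passed still did, among 201 higher and 876 lower.

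**Figure D4:**
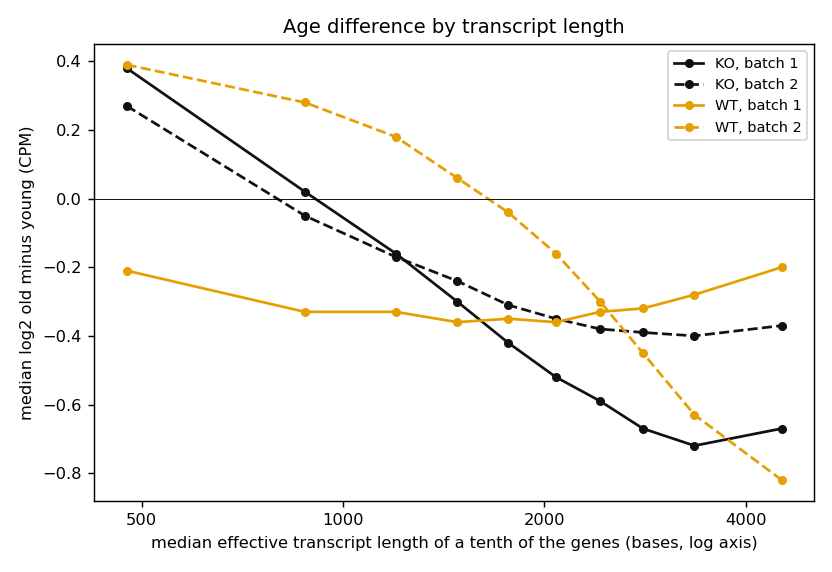
Median log2 difference of old minus young (CPM) for 10 groups of expressed protein-coding genes ordered by effective transcript length in bases (log axis), within each batch of KO (black) and WT mice (orange). In both KO batches short transcripts lie above long ones (0.38 and 0.27 in the shortest group, -0.67 and -0.37 in the longest), and in WT mice this holds in batch 2 only.

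The WT littermates gave the same comparison in mice with Asxl2. The old WT mouse of batch 1 also had Xist (3.61 TPM) and little Ddx3y (0.225 TPM), so sex cannot be told apart from age in batch 1 of WT mice either. Its Eif2s3y, Kdm5d and Uty were at 0.64, 2.02 and 2.51 TPM. The other WT libraries had 51.3 to 105, 5.74 to 14 and 11.2 to 30.7 TPM, in that order. Here too 22 genes passed, 0.0861% of those tested, and 10 of them were also among the 22 of KO mice, 45.5% of each list. Of these 10, 9 had the same direction, namely Plscr2, Hnf4a, Gvin1, Clca3a1, Slc16a11, Clu, Nupr1, Aldh1a1 and Zg16, while Ighv7-1 had opposite directions. The KO and WT differences share no library, though both come from the same litters and batches. Within both WT batches, 2380 genes (9.32%) were at least 2-fold higher in old mice and 152 (0.595%) lower, against 18.8% and 0.963% in KO mice. Of the 22 genes of KO mice, 18 were counted as having the same sign in both WT batches as in KO mice. This count includes Gvin1, which had 0 counts in both WT libraries of batch 2 and so no direction there. The share over all genes was not computed. Plscr2 measured 3.63 and 5.87 TPM in young and 59.0 and 61.1 TPM in old WT mice, and its change in KO mice minus that in WT mice was -0.01 on the log2 scale (SE 0.38). The list of aged stem cell genes had WT medians of 1.18 and 1.14 within batches 1 and 2, against 1.57 and 1.14 in KO mice.

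The interaction of age and genotype tests whether the age difference in KO mice differs from that in WT mice. It passed for 1 gene of 25543, or 0.00391%, the antibody segment Ighv7-1 (edgeR adjusted p = 0.0068), with 505 genes at an unadjusted p under 0.05. This call rested on 2307 counts in the young WT mouse of batch 1 and 185 in the old KO mouse of batch 1, with at most 1 count in the other 6 libraries, and its fitted value is no measure of size. Without either library, or without the young KO mouse or the old WT mouse of batch 1, Ighv7-1 was not called. The litter block also gave 1 gene, the same one.

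Among the 10 genes named for the interaction, the difference was largest in Fos, an immediate early transcription factor, which did not pass. Fos measured 2.92 and 2.03 TPM in young and 3.65 and 5.45 TPM in old KO mice, a log2 difference of 0.78 (adjusted p = 0.22). In WT mice it measured 2.16 and 1.49 TPM in young and 39.9 and 39.5 TPM in old mice, where it rose by 4.52 (edgeR adjusted p = 0.00285). The 2 old WT mice were thus far above all other libraries, the old KO mice included. The difference of the age changes was -3.74 (SE 0.53, edgeR adjusted p = 0.222), and over the 18 alternatives it ranged from -4.24 to -3.14 and passed in 7. These were DESeq2 (adjusted p = 5.31e-08), no low-count filter, the length correction and leaving out either old KO mouse, the young KO mouse of batch 2 or the young WT mouse of batch 1. Egr1, Dusp1, Rgs1 and Gem were named for having low interactions, so their shared sign was set by the choice. Of the 33 tested genes of the immediate early and stress list, 26 had an interaction below 0 and 7 above. The median was -0.31 beside -0.01 over all genes, and Mt2, Mt1 and Gadd45g were among those above 0 (2.67, 1.51 and 0.73). The share of expressed protein-coding genes below 0 was not computed. Their median age differences in batches 1 and 2 were -0.39 and -0.27 in KO and -0.31 and -0.09 in WT mice. The list was chosen with earlier results known, so its direction is not independent evidence. Egr1 measured 28.2 and 28.4 TPM in young and 12.0 and 12.6 TPM in old KO mice, and 29.7 and 32.8 TPM in young and 33.6 and 37.9 TPM in old WT mice (interaction -1.27, edgeR adjusted p = 1.0, and 0.0286 with no low-count filter). Dusp1, a phosphatase that switches off MAP kinases, had -1.14, Rgs1, a regulator of G protein signalling, -1.52, and Gem -1.43, each with an edgeR adjusted p of 1.0. Rgs1 passed with DESeq2 (adjusted p = 0.0131) and with no filter (0.00059), and Gem with no filter (0.00759).

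Ctsg and Phf11d were among the genes that passed in KO mice only. Ctsg measured 135 and 87.5 TPM in young and 87.9 and 120 TPM in old WT mice, with no common direction in the batches, and its interaction was 2.19 (SE 0.42, edgeR adjusted p = 1.0). The interaction of Ctsg passed with DESeq2 (adjusted p = 0.0121) and with no low-count filter (3.74e-07). Phf11d measured 4.03 and 6.01 TPM in young and 9.52 and 16.6 TPM in old WT mice, and its interaction was 1.70 (SE 0.42, adjusted p = 1.0). Mt1 measured 13.2 and 9.62 TPM in young and 30.6 and 31.1 TPM in old WT mice, with an interaction of 1.51 (SE 0.48, adjusted p = 1.0). For these genes the age difference was larger in KO than in WT mice in both batches, but the edgeR test of the difference did not pass.

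**Figure D5:**
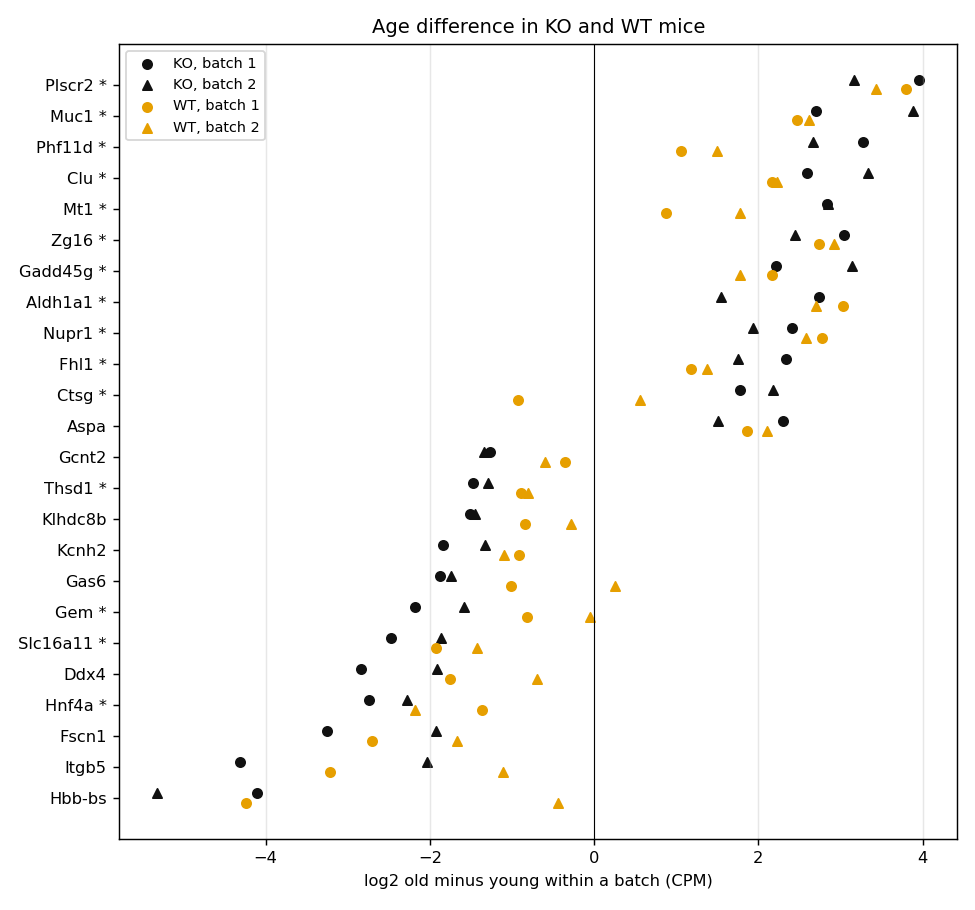
Log2 difference of old minus young within each batch (CPM) for the 24 protein-coding genes named by rule, in KO (black) and WT mice (orange), with circles for batch 1, triangles for batch 2 and a star for an adjusted p under 0.05 in KO mice. All of the 24 but Ctsg and Gas6 have the same sign in all 4 comparisons, though Gem is at only -0.05 in batch 2 of WT mice. Ctsg lies at 1.77 and 2.18 in KO mice and has opposite signs in the 2 WT batches. Gas6 is lower in both KO batches and has -1.01 and 0.25 in the WT batches.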

How the data were processed

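RNA with polyA tails was measured in sorted LSK cells of 8 mice, 2 for each genotype and age, from libraries made with an ultra-low-input SMART-Seq kit per the labels' protocols. Tools named in the submitters' processing notes are kallisto and DESeq2, with mm10 as the build. The deposited tables give estimated counts, TPM and effective length for each of 115088 transcripts, per the file headers. Of these transcripts 114200 were matched by identifier to 47311 genes of the GENCODE vM21 annotation, and the other 888 held 0.259% to 0.47% of the counts. No mitochondrially encoded gene was matched, so none was analysed here. Transcript values were added up by gene, with counts then rounded and TPM left as they were. Library totals ran from 45737972 to 80388500. Counting error was not compared with the difference between mice, and genes at low levels rest on few counts.

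Genes were kept by filterByExpr (at least 10 counts, total of at least 15), scaled by TMM and tested by quasi-likelihood F tests (edgeR 4.0.16, R 4.3.3) in a model of 4 groups and batch on all 8 libraries (3 residual degrees of freedom). The Benjamini-Hochberg adjustment covered 25543 genes. Each SE given is the absolute log2 change divided by the square root of the F statistic, so it is derived from the test and not estimated separately. Batch pairs old with young KO mice, since the labels say which mice shared a batch, and was kept as the block. With 2 pairs per genotype, whether paired mice deviate together could not be checked from the data. Litter was the block of an alternative for the interaction. Within batches, log2 differences are of TMM-scaled CPM with a prior count of 2. Alternatives used DESeq2 1.42.0 and limma 3.58.1. Tables and plots were made with numpy 2.4.6, pandas 2.3.3 and matplotlib 3.10.9 in Python 3.11.15. The edgeR model was run on simulated counts in which 200 genes changed and all genes had 1 common spread. At the estimated spread (dispersion 0.141) it recovered 0 of the 200 at 2-fold, 55 at 4-fold and 184 at 8-fold. With a dispersion of 0.0141 it recovered 198 at 2-fold. A count of 0 passed by edgeR therefore does not show that differences of about 2-fold are absent.

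The members and all lists were chosen with earlier results of these data known. Named genes were Asxl2, Asxl1, Selp, Vwf, Clu, Nupr1, Aldh1a1, Slamf1, Flt3 and Dntt, and the 12 highest and 12 lowest fold changes among protein-coding genes that passed, had the same sign in both batches and had a mean of at least 5 TPM in the higher group. Predicted models, Riken clones and antigen receptor segments were left out, and places not filled went to the smallest p. Up to 4 members of each list with the largest difference shared by both batches and 5 genes in each direction for the interaction were added. Some of the genes this rule names are not reported here. The alternatives changed the scaling, tool, filter, unit, length trend, block and libraries.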

Additional observations from a re-analysis of the deposited data

Results flagged for a closer look

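Some genes had an age difference of 1 sign in both batches of KO mice and of the opposite sign in both batches of WT mice, and another gene passed the interaction test. The first kind numbered 8 among the named genes, and none of the 8 passed the interaction test (edgeR adjusted p = 1 for each). As the log2 age difference in KO minus that in WT mice, the values were 0.44 for Asxl2, 2.22 for the surface gene Prom1, 2.64 for the clotting factor subunit F13a1, -1.52 for Rgs1, -1.14 for Dusp1, 1.55 for the chemokine receptor Cxcr2, 3.59 for the leptin receptor Lepr and 0.60 for the chaperone Hsp90aa1. F13a1 measured 3.07 and 4.18 TPM in young and 3.49 and 22.7 TPM in old KO mice, and its interaction passed without the old KO mouse of batch 1 (3.27, edgeR adjusted p = 0.013) and without a low-count filter (1.32e-06). Prom1 passed with DESeq2 (adjusted p = 0.023), and Rgs1 with DESeq2 (0.0131) and without a low-count filter (0.00059). Ighv7-1 passed the interaction test (edgeR adjusted p = 0.0068) with a fitted value of 20.34, which depends on libraries without counts and is no bound.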

How the results depend on the processing

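In place of 22 genes for old against young KO, the count was 3371 with DESeq2 (1106 higher, 2265 lower; 20 of the 22 shared), 2943 with no low-count filter, 1077 with the length correction, 4761 with the KO libraries only (1 residual degree of freedom), 6 with no replicate block, 4 with limma on log2(TPM + 1) or log2(TPM + 0.1), and 4 without litter 1, of which 0 were among the 22. Leaving out 1 library gave 0 to 2772. DESeq2 size factors gave 15 and a mean of at least 2 TPM 17. The interaction count of 1 became 7 with DESeq2, 75 with no filter, 2 with the length correction or without litter 1, 0 with limma at either pseudocount, with a mean of at least 2 TPM or with no replicate block, and 0 to 15 with 1 library left out, and stayed at 1 with litter as the replicate block. Genes at least 2-fold apart in both batches numbered 5039, and 834 with log2(TPM + 1), 9078 at 1.5-fold, 593 at 4-fold and 704 where the higher group averaged 5 TPM or more. An alternative chosen after seeing the data, a mean of at least 5 TPM over KO libraries, gave 483. The cause of these differences was not tested.

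Of the named genes' values for old against young KO under the alternatives, 1949 kept their side of the threshold, 559 passed newly, 97 lost the call and 23 turned sign. With the length correction, which moved the median of all genes from 0.18 to -0.21, the turned values were Dntt -0.00, Ighm -0.17, Ccl5 -0.13, Nkg7 -0.23, Bst2 -0.25, Cks2 -0.35, Psmb8 -0.08, Hspe1 -0.12, Ndufa1 -0.20, Atp5l -0.16, Cox8a -0.22, Cox5a -0.15, Rps28 -0.02, Rps29 -0.06, Psmb3 -0.33 and Psmb2 -0.45. Without litter 1 they were Slamf1 -0.06 and Ctss 0.06, and with a mean of at least 2 TPM Ctss 0.03. With 1 library left out, Slamf1 ranged from -0.07 to 0.25 and Ighm from -0.04 to 0.25 (both lowest without the old KO mouse of batch 1), Dntt from -0.50 to 0.72 (lowest without the old KO mouse of batch 2) and Prg2 from -1.36 to 0.07 (highest without the young KO mouse of batch 1). With 1 mouse left out, the lone mouse of its group is assumed to vary like the other groups. With 2 mice a group, a missed threshold shows no equality.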

Other observations

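Genes of inflammation, signalling and metabolism that the report did not describe had medians near that of expressed protein-coding genes (-0.34). The NF-kB and inflammation list had a median log2 difference of -0.36 over 30 genes, with 0 past the threshold by edgeR, 1 higher and 13 lower at an unadjusted p under 0.05 and 11 called lower by DESeq2, beside 31.3% and 20.9% of expressed protein-coding genes lower. Icam1, an adhesion molecule induced by NF-kB, measured 63.3 and 56.7 TPM in the young KO mice of batches 1 and 2 and 31.4 and 33.4 TPM in the old ones (log2 -0.87, adjusted p = 0.109). Lysosome genes had a median of -0.35, and Psap, the precursor of the saposins, measured 228 and 235 TPM in young and 105 and 100 TPM in old KO mice (log2 -1.13, adjusted p = 0.111). The glycolysis list had -0.38, and Slc2a3, a glucose transporter, measured 40.4 and 38.7 TPM in young and 19.1 and 27.8 TPM in old KO mice (adjusted p = 0.111). Both old mice were lower than both young mice for each of these 3 genes.

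The adhesion and niche list had 4 of 30 members at least 2-fold higher and 4 at least 2-fold lower in both batches, beside 18.8% and 0.963% of all genes. Jam2, a junction molecule of stem cells and endothelium, measured 1.68 and 2.75 TPM in young and 9.37 and 6.71 TPM in old KO mice (log2 1.73, adjusted p = 0.0899). Itgb2, the shared chain of the leukocyte integrins, measured 31.7 and 34.6 TPM in young and 10.4 and 15.4 TPM in old KO mice (log2 -1.37, adjusted p = 0.0563). Txnip, a thioredoxin-binding protein of the quiescence list, measured 539 and 385 TPM in young and 284 and 177 TPM in old KO mice (log2 -0.98, adjusted p = 0.111).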
